A study of Mus musculus with 20 samples.

Results

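The guanylate-binding protein genes *Gbp2*, *Gbp3*, *Gbp4*, *Gbp5*, *Gbp6* and *Gbp7*, the transcription factor gene *Irf1* and the GTPase genes *Igtp* and *Irgm1* were followed in plantaris muscle of the mouse, 9 genes of 54532 in the count tables. They were listed by name with their values after miR-1 mimic and control virus in overloaded muscle already known, that is, selected on MOV mimic against MOV control, so those values are a description here and carry no test. RNA-seq libraries came from male C57BL/6J mice aged 5 months, 10 days after sham surgery or after bilateral synergist ablation (mechanical overload, MOV), in which part of the gastrocnemius-soleus complex is taken out and the plantaris carries more load. At surgery, each mouse received 50 µL of control lentivirus in the left plantaris and 50 µL of lentivirus with the miR-1 mimic in the right plantaris. The 4 groups of 5 libraries were MOV mimic, MOV control, sham mimic and sham control, from 5 mice per surgery as the methods give them. Both viruses carried a mouse CMV promoter and TurboGFP, a promoter that is not restricted to muscle fibres, and all 20 libraries, the sham control ones included, come from muscles that were operated on and injected. Leg side and virus cannot be told apart. Libraries carry the numbers 1 to 5 in each group. A pair here is the mimic and the control library of equal number within a surgery, and the labels do not state that the members of a pair came from 1 mouse.

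Interferon-gamma is a cytokine made mainly by T cells and natural killer (NK) cells. It binds the receptor of *Ifngr1* and *Ifngr2*, the kinases of *Jak1* and *Jak2* act next, and gamma-activated sites (GAS) in promoters are the response elements of this first step. One early product is IRF1, which binds interferon-stimulated response elements (ISRE) and so drives a second wave of genes. Guanylate-binding proteins (GBPs) are large GTPases that coat vacuoles and membranes of intracellular pathogens and help to activate inflammasomes. *Igtp* (also named Irgm3) and *Irgm1* encode immunity-related GTPases (IRGs) of the regulatory type, which sit on host membranes, hold effector IRGs inactive there and take part in autophagy. These genes are expressed at a low level in resting tissue and are induced in many cell types, muscle cells among them.

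Promoter windows with GAS or ISRE letters are shown because these elements are named in the 2 steps of the pathway just described. Neither set of letters is taken as particular to interferon-gamma. Promoter sequences of RefSeq (GRCm38.p6, 250 bases before to 50 bases after the start) were found for 7 of the 9 members, all but *Gbp4* and *Gbp6*. GAS was searched as TTCNNNGAA, which reads the same on both strands, and the ISRE core as GAAANNGAAA on both strands. Matches are in capitals, and windows of 30 bases are written 5′ to 3′ on the strand of the gene. Not every match is printed. The 2 ISRE matches of *Gbp3* and those of *Irgm1* overlap each other.
Gbp2, chr3:142620594-142620623, plus strand, ISRE: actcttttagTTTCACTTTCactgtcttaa
Gbp3, chr3:142559992-142560021, plus strand, ISRE: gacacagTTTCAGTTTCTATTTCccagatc
Gbp5, chr3:142496872-142496901, plus strand, GAS: tggccgttatTTCTCAGAAccaagcacaga
Gbp5, chr3:142496759-142496788, plus strand, ISRE: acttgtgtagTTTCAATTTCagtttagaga
Gbp7, chr3:142530229-142530258, plus strand, GAS: tTTCCAGGAAaagcagaagcTTCTCAGAAa
Gbp7, chr3:142530273-142530302, plus strand, ISRE: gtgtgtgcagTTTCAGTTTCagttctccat
Irf1, chr11:53769914-53769943, plus strand, GAS: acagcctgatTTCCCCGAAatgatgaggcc
Igtp, chr11:58199507-58199536, plus strand, GAS and ISRE: ccatTTCTAGGAActGAAACTGAAAgctgt
Irgm1, chr11:48871428-48871457, minus strand, ISRE: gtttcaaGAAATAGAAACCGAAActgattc

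GAS letters were found in a promoter of 4 of the 7 genes (*Gbp5*, *Gbp7*, *Irf1* and *Igtp*) and of 9.55% of all 27025 genes with a RefSeq promoter of this length. *Gbp3* and *Irf1* have 2 promoters each, of which the second holds no match. ISRE letters were found for 6 of the 7 genes, all but *Irf1*, and for 3.99% of all genes. Both motifs stood in 1 promoter for 3 of the 7 genes (*Gbp5*, *Gbp7* and *Igtp*) and for 0.54% of all genes. The promoter of *Gbp5* goes by the RefSeq symbol, and the counted row called *Gbp5* may hold another gene, as described below. In *Igtp* the GAS match lies at positions -45 to -37 from the start and the ISRE match at -34 to -25, within the same 30 bases, as both do in the promoter of *Irgm2*, a related gene that is no member. A match is a description of letters and no evidence of binding. The map of motif positions places these matches.

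**Figure D1:**
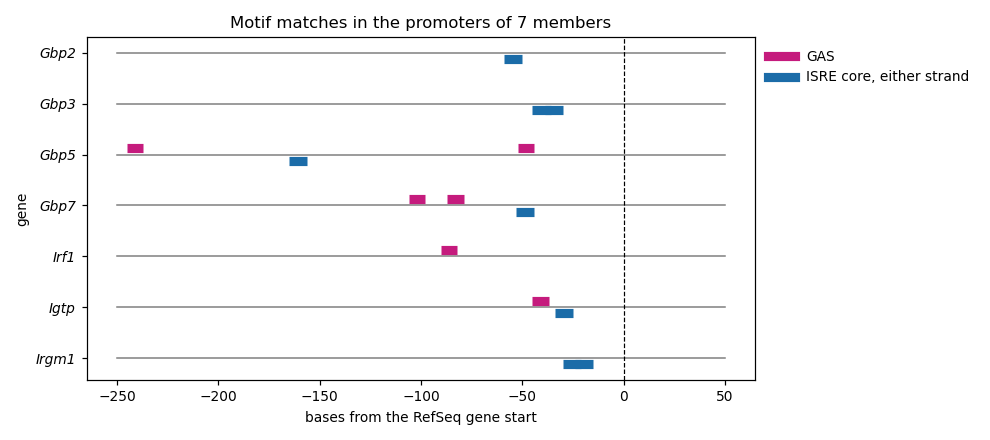
Positions of GAS (pink, above each line) and ISRE core matches (blue, below each line) in the RefSeq promoters of 7 members, on an axis of bases from the gene start (dashed line). Of the 7 genes, 4 hold a GAS match and 6 an ISRE match, and 3 hold both.

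Genes were counted under Ensembl identifiers, and symbols came from a table of an older annotation. *Gbp2* (ENSMUSG00000028270, chr3:142620663-142638008), *Gbp3* (ENSMUSG00000028268, chr3:142560016-142573213) and *Gbp7* (ENSMUSG00000040253, chr3:142530336-142550151) lie in 1 cluster on chromosome 3. *Gbp4* (ENSMUSG00000079363, chr5:105115767-105139586) lies on chromosome 5. *Irf1* (ENSMUSG00000018899, chr11:53770014-53778374), *Igtp* (ENSMUSG00000078853, chr11:58199556-58207592) and *Irgm1* (ENSMUSG00000046879, chr11:48865245-48871420) lie on chromosome 11. These are RefSeq gene bounds in GRCm38.p6, the build of the alignment. Of the 11 identifiers that the table pairs with GBP symbols, 2 are not among those counted, so the identifiers of this family were revised between annotations. The rows called *Gbp5* (ENSMUSG00000040264) and *Gbp6* (ENSMUSG00000079362) may therefore hold another gene of the family. GBPs are close paralogs, and how reads with several alignments were counted is not given in the sources used here, so reads may be split between them.

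The tissue label held: 8 muscle fibre markers summed to 62806 to 170178 CPM in the 20 libraries. CPM here are counts scaled to a common library size (per 1e6 counted reads) with TMM factors over the 20 libraries. Libraries held 12036360 to 23056525 counts, the shallowest being MOV mimic 4. The row called *Gbp6* had 23 counts in all 20 libraries together and at most 5 in 1 library, failed the filter on low counts and is not followed further. Reads of the gene may be counted under an identifier that the table does not name, so these counts say nothing of its level. The other 8 members had a mean of 4.35 CPM (*Gbp5*) to 252 CPM (*Igtp*) and passed the filter in every comparison.

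A few libraries stood apart for the members, and each group held at least 1 of them. In sham, number 5 was the highest library for 8 of 8 members in both the control and the mimic group. In MOV control, number 4 was the highest and number 2 the second for 8 of 8 members. In MOV mimic, number 4 was the highest for 7 of 8, the exception being *Gbp5*, for which number 2 was the highest. Numbers 3 and 5 were the 2 lowest libraries for 8 of 8 members in both MOV groups. Within a group, the SD of log2 CPM of the members was 0.82 to 2.44, where the median over 13948 genes with a mean of at least 1 CPM was 0.29 to 0.40 in the 4 groups.

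*Gbp2*, a GBP that acts on vacuoles of *Toxoplasma* and on bacteria, was followed first. Sham control libraries 1 to 5 held 16.1, 12.7, 15.1, 21.1 and 92.5 CPM of *Gbp2*, and sham mimic libraries 16.8, 15.0, 31.1, 18.4 and 86.1 CPM. MOV control libraries held 19.5, 47.7, 15.5, 103 and 10.4 CPM of *Gbp2*, and MOV mimic libraries 48.9, 236, 12.6, 265 and 18.2 CPM. Numbers 2 and 4 of MOV mimic lay above all other libraries, and the other 3 overlapped with the remaining groups. By mean, *Gbp2* stood in the order sham control (31.5 ± 34.2), sham mimic (33.5 ± 30.1), MOV control (39.2 ± 38.4) and then MOV mimic (116 ± 124 CPM, SD, with 5 libraries in each mean, here and below).

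*Gbp3*, of the same cluster on chromosome 3, held 11.3, 10.4, 23.9, 14.2 and 51.3 CPM in sham control and 12.4, 10.1, 41.3, 12.5 and 65.5 CPM in sham mimic. In MOV control *Gbp3* was at 19.4, 24.5, 8.93, 61.2 and 8.24 CPM and in MOV mimic at 56.9, 96.7, 18.3, 125 and 16.2 CPM. Each MOV mimic library lay above the MOV control library of its number, also at the low numbers 3 and 5. By mean, *Gbp3* stood in the order sham control (22.2 ± 17.1), MOV control (24.5 ± 21.7), sham mimic (28.4 ± 24.5) and MOV mimic (62.7 ± 48.1 CPM).

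For *Gbp4*, sham control libraries held 19.2, 13.2, 10.4, 14.3 and 74.8 CPM and sham mimic libraries 17.5, 11.5, 25.7, 15.0 and 60.2 CPM. MOV control libraries held 12.9, 23.9, 10.5, 50.1 and 8.02 CPM of *Gbp4* and MOV mimic libraries 30.1, 113, 8.53, 134 and 14.5 CPM. Number 3 of MOV mimic was below 4 of the 5 MOV control libraries. *Gbp4* was the 1 member with the lowest mean in MOV control (21.1 ± 17.3 CPM), followed by sham mimic (26 ± 19.8), sham control (26.4 ± 27.3) and MOV mimic (59.9 ± 58.8).

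The row called *Gbp5* had few reads, from 1 to 551 counts per library. Its sham control libraries held 1.58, 0.0623, 0.851, 1.20 and 8.35 CPM and its sham mimic libraries 0.220, 0.525, 4.59, 0.0877 and 6.06 CPM. In MOV control it was at 2.03, 5.23, 0.416, 7.0 and 1.38 CPM and in MOV mimic at 3.58, 26.1, 2.02, 15.6 and 0.260 CPM. The lowest values rest on 1 to 4 counts, and MOV mimic 5, with 4 counts, was below each of the MOV control libraries. GBP5 is known for promoting assembly of the NLRP3 inflammasome.

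*Gbp7*, which lies between the loci of *Gbp5* and *Gbp3*, held 23.4, 11.8, 13.6, 21.9 and 92.3 CPM in sham control and 17.2, 8.16, 32.8, 16.5 and 194 CPM in sham mimic. In MOV control *Gbp7* was at 21.6, 32.7, 13.1, 143 and 12.6 CPM and in MOV mimic at 90.8, 159, 11.6, 235 and 22.1 CPM. The sham mimic library with 194 CPM exceeded 4 of the 5 MOV mimic libraries. The order by mean was sham control (32.6 ± 33.8), MOV control (44.5 ± 55.4), sham mimic (53.7 ± 78.8) and MOV mimic (104 ± 94.2 CPM).

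*Irf1*, the transcription factor of the list, had the smallest range on a fold scale among the 7 members with a secure symbol, 13.4-fold from 8.28 to 111 CPM. Sham control libraries held 9.91, 15.6, 16.2, 17.9 and 47.3 CPM of *Irf1* and sham mimic libraries 8.28, 13.2, 24.9, 14.3 and 53.8 CPM. In MOV control *Irf1* was at 20.9, 31.4, 15.4, 65.9 and 10.4 CPM and in MOV mimic at 27.4, 98.6, 17.1, 111 and 16.2 CPM. The mean of MOV mimic was 54.0 ± 46.6 CPM, followed by MOV control (28.8 ± 22.2), sham mimic (22.9 ± 18.3) and sham control (21.4 ± 14.8). The same numbers were high as for the GTPases.

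*Igtp*, a regulatory IRG, had the widest range of CPM among the 7 members with a secure symbol, 66.6-fold from the lowest to the highest library. In sham control *Igtp* was at 67.0, 17.8, 32.3, 60.6 and 508 CPM and in sham mimic at 22.5, 25.5, 66.4, 19.4 and 892 CPM. MOV control libraries held 54.1, 183, 29.1, 803 and 28.7 CPM of *Igtp* and MOV mimic libraries 167, 793, 29.6, 1187 and 61.9 CPM. Sham mimic 5, MOV control 4 and MOV mimic 2 and 4 were the 4 highest libraries, and none of them was in sham control. From the highest mean down, MOV mimic was at 448 ± 517, MOV control at 219.5 ± 332, sham mimic at 205 ± 384 and sham control at 137 ± 208 CPM.

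*Irgm1*, the other regulatory IRG, held 45.7, 27.0, 25.2, 43.7 and 269 CPM in sham control and 26.3, 29.7, 52.0, 21.4 and 413 CPM in sham mimic. It was at 40.2, 112, 29.5, 455 and 36.7 CPM in MOV control and at 81.4, 399, 25.4, 659 and 29.7 CPM in MOV mimic. Numbers 3 and 5 of MOV mimic were below their MOV control counterparts. Its means were 239 ± 281 CPM in MOV mimic, 135 ± 182 in MOV control, 109 ± 171 in sham mimic and 82.1 ± 105 in sham control. For each of the 8 members MOV mimic had the highest mean and median of the 4 groups, and any 2 groups that follow each other in the order of means overlapped in their libraries and differed by less than the larger of their SDs.

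**Figure D2:**
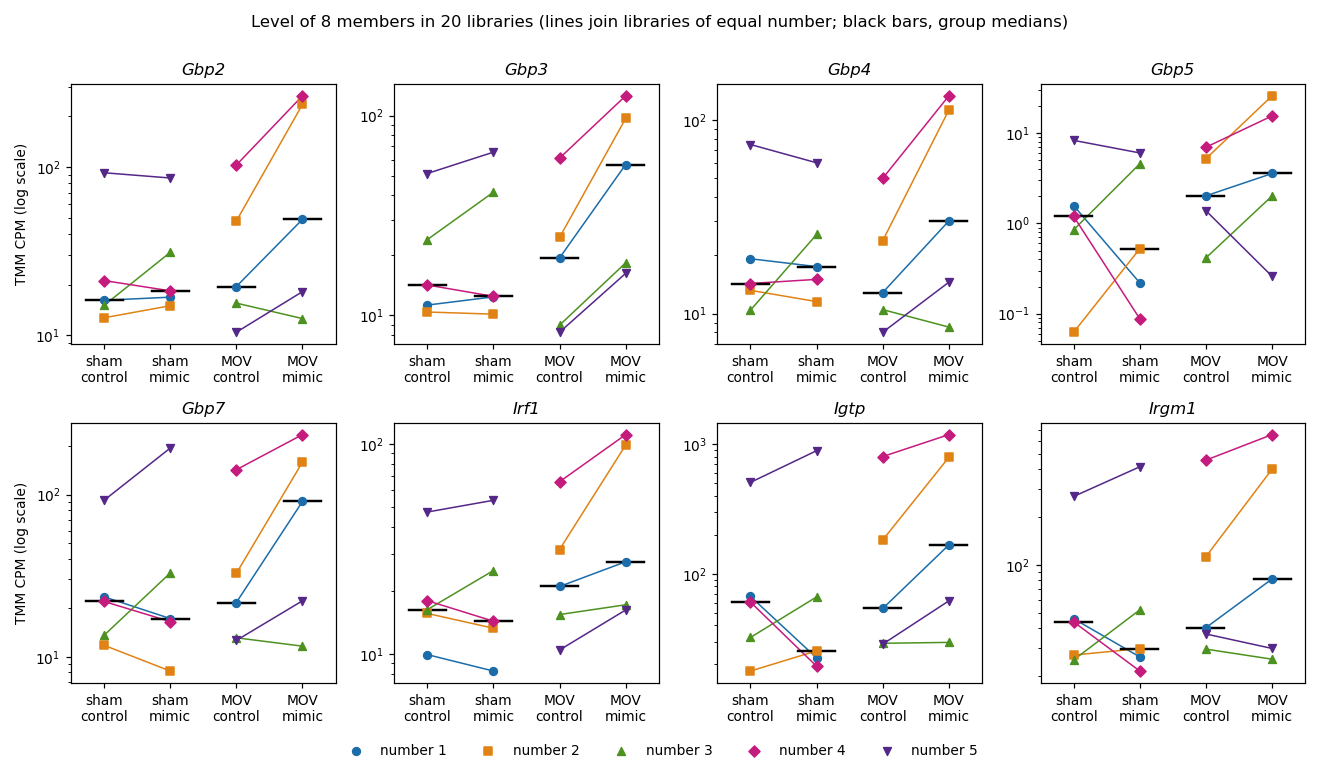
TMM CPM (log axis) of 8 members in the 20 libraries by group, with a colour and symbol for each library number, lines between libraries of equal number and black bars at the group medians. Number 5 in sham and number 4 in MOV control are the highest points in each panel, and number 4 of MOV mimic is the highest in 7 of 8.

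Levels of the members went up and down together across libraries. Over the 20 libraries, Pearson's r of log2 CPM between 2 members was 0.78 (*Gbp4* and *Gbp5*) to 0.98 (*Igtp* and *Irgm1*), with a median of 0.93 over 28 pairs of genes. These libraries share 4 groups and possibly mice, and reads of paralogs may be shared, so the coefficients are a description. Among the 8 genes with the highest r to the mean z-score of the members, out of 13940 other genes with at least 1 CPM on average, were *Irgm2* (0.98), *Tap1* (0.98), *Iigp1* (0.97) and *Parp14* (0.96), then 2 genes without a symbol in the table (ENSMUSG00000096727 and ENSMUSG00000104713, each 0.96) and *Tgtp2* (0.96). Either of the genes without a symbol, with means of 20.6 and 48.8 CPM, may be a gene of the families followed here under a revised identifier, possibly a member itself. The median r over the 13940 genes was -0.04 and the 95th percentile 0.48. *Irgm2* encodes the remaining regulatory IRG, *Iigp1* and *Tgtp2* effector IRGs, and *Tap1* a peptide transporter of the MHC class I pathway.

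Overload on its own was compared in the control legs, MOV control against sham control. This comparison did not choose the members, though it shares the MOV control libraries with the contrast that did. None of the 8 members passed the test (edgeR quasi-likelihood test, Benjamini-Hochberg adjusted p under 0.05), where 0.00668% of 14974 genes did, which is 1 gene, *Nos1*, named after its value was seen. At an unadjusted p under 0.05, edgeR gave 2726 genes and none of the 8 members. DESeq2 called 6.1% of the same genes and limma with voom and quality weights 946 genes, again with none of the members. *Gbp2* differed by a log2 fold change of 0.33 (SE 0.67, adjusted p = 0.829, edgeR), *Gbp3* by 0.15 (SE 0.56, adjusted p = 0.911) and *Gbp4* by -0.31 (SE 0.59, adjusted p = 0.821). For *Gbp5* the log2 fold change was 0.44 (SE 0.89, adjusted p = 0.830, edgeR) and for *Gbp7* it was 0.46 (SE 0.72, adjusted p = 0.774). *Irf1* had a log2 fold change of 0.45 (SE 0.49, adjusted p = 0.665, edgeR), *Igtp* of 0.69 (SE 1.03, adjusted p = 0.762) and *Irgm1* of 0.73 (SE 0.84, adjusted p = 0.682). With standard errors of 0.49 to 1.03, the missed threshold does not show equal levels.

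The direction of that comparison hung on single libraries. The median log2 fold change of the 8 members was 0.44 (0.04 over all genes tested), with 7 of 8 above 0. With voom and quality weights it was 0.18, with 6 of 8 above 0. Without MOV control 4 the median was -0.55, with 0 of 8 above 0, and without sham control 5 it was 1.29, with 8 of 8 above 0. Over the 7 members with a secure symbol edgeR gave 0.45 on the 10 libraries. None of the 8 members had libraries of MOV control and sham control that did not overlap, where 4.98% of 13948 genes did.

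The virus was also compared in the sham legs, sham mimic against sham control. Fold changes on the log2 scale were -0.06 (*Gbp5*, SE 1.09) to 0.73 (*Gbp7*, SE 0.84), with a median of 0.23 beside 0.00 over all 14746 genes. edgeR called 0.0% of these genes, 254 had an unadjusted p under 0.05, and DESeq2 and voom called 0. These fits hold no term for the mouse, though by the methods both groups are legs of the same mice. With equal numbers as a block edgeR and DESeq2 called 0 genes each. Without sham mimic 5 the median of the members was -0.71 and without sham control 5 it was 1.16.

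By pair, the mimic leg minus the control leg in sham had means between -0.27 ± 2.30 (*Gbp5*) and 0.21 ± 0.38 (*Gbp3*) on the log2 scale (SD, n = 5 pairs). No member was higher in the mimic leg of all 5 sham pairs, which held for 2.41% of 13948 genes. Pairs 1 and 4 leaned towards control, with 2 and 1 of 8 members higher in the mimic leg. Leaving out 1 pair could turn the sign of the mean difference in sham for 7 of 8 members, all but *Gbp3*, and it was lowest without pair 3 for 8 of 8. Sham pair 3 leaned towards mimic in 8 of 8 members, by 0.62 (*Irf1*) to 2.28 (*Gbp5*). *Igtp* showed the split most plainly among the secure symbols, with -1.57, 0.51, 1.04, -1.64 and 0.81 in pairs 1 to 5.

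In the overloaded legs the mean of each member was higher in the mimic libraries, the contrast whose values were known when the genes were listed. The log2 fold changes of MOV mimic against MOV control were 1.58 for *Gbp2* (SE 0.83), 1.37 for *Gbp3* (SE 0.62), 1.52 for *Gbp4* (SE 0.71), 1.57 for *Gbp5* (SE 0.92) and 1.24 for *Gbp7* (SE 0.80). They were 0.91 for *Irf1* (SE 0.60), 1.05 for *Igtp* (SE 1.04) and 0.84 for *Irgm1* (SE 0.94). The median of the 8 members was 1.30 and that of all 15220 genes -0.01. Without MOV mimic 4 the median was 0.81, with *Igtp* at 0.27 and *Irgm1* at -0.00096, and without MOV control 4 it was 2.11. In the 2-group fit of edgeR 0 of 8 members and 0.0% of 15220 genes were called, with 641 genes at an unadjusted p under 0.05, while DESeq2 called 3 genes and voom 0, and nothing is read from these counts for the members. The libraries of the 2 groups overlapped for 8 of 8 members, where 0.703% of 13948 genes had no overlap, and the difference of the means was smaller than the SD of MOV mimic for each. In bulk muscle, more cells of a type and more RNA per cell cannot be told apart.

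**Figure D3:**
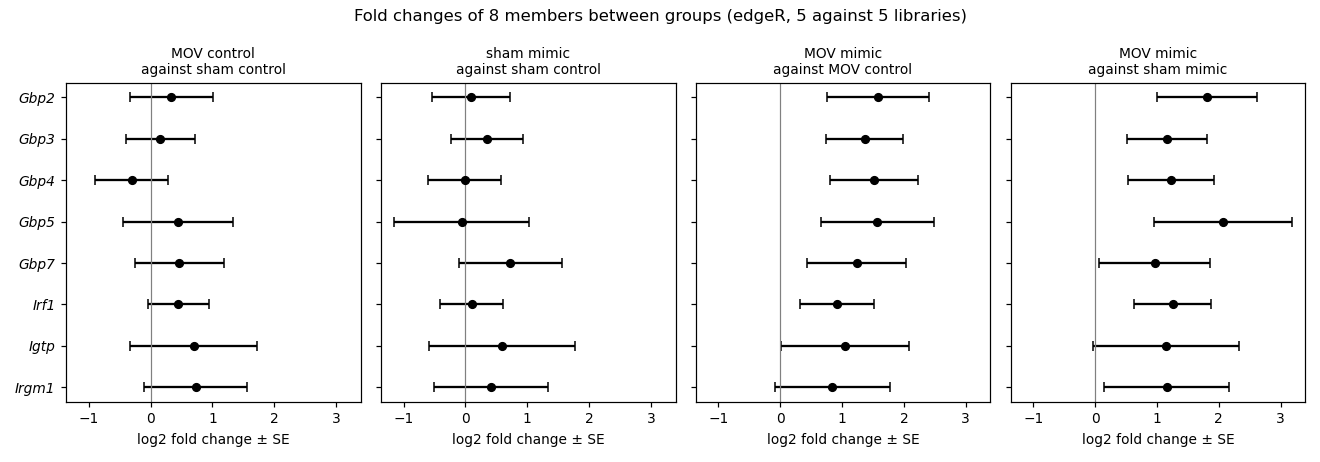
Log2 fold change of 8 members with its standard error (edgeR, 5 against 5 libraries) in 4 comparisons, with a grey line at 0. The intervals of 1 SE include 0 for 8 of 8 members in MOV control against sham control and in sham mimic against sham control, and for 1 of 8, *Irgm1*, in MOV mimic against MOV control. The members were selected on MOV mimic against MOV control, so its intervals are a description and no test.

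Pair by pair, *Gbp3*, *Irf1* and *Igtp* were higher in the mimic leg of 5 of 5 MOV pairs. That held for 3 of 8 members and for 4.49% of 13948 genes, and since this contrast chose the members nothing is read from the count. *Gbp3* differed by 1.55, 1.97, 1.03, 1.04 and 0.97 on the log2 scale in pairs 1 to 5, with a mean of 1.31 ± 0.44 (SD, n = 5 pairs), the smallest SD of the 8. *Irf1* differed by 0.39, 1.65, 0.15, 0.75 and 0.63 (mean 0.71 ± 0.57). *Igtp* differed by 1.63, 2.12, 0.02, 0.56 and 1.11 (mean 1.09 ± 0.83), so that its pair 3 was level.

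*Gbp2* and *Gbp4* were higher in 4 of 5 pairs, with differences of 1.32, 2.30, -0.30, 1.37 and 0.80 for *Gbp2* (mean 1.10 ± 0.95). *Gbp4* had differences of 1.22, 2.24, -0.30, 1.41 and 0.85 (mean 1.09 ± 0.92), and *Gbp7* of 2.06, 2.28, -0.17, 0.72 and 0.81 (mean 1.14 ± 1.02). For *Gbp5* they were 0.79, 2.29, 2.01, 1.14 and -2.0 (mean 0.85 ± 1.71), the last on 4 counts in the mimic library. *Irgm1* was higher in 3 of 5 pairs, at 1.02, 1.83, -0.21, 0.53 and -0.30 (mean 0.57 ± 0.89). Pair 2 had the largest differences, 1.65 to 2.30, and was the pair whose removal lowered the mean most for 8 of 8 members, to between 0.26 (*Irgm1*) and 1.14 (*Gbp3*). In pair 3, 4 of 8 members were higher in the mimic leg.

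The levels of a pair spread more over the pairs than its differences did. The SD of the pair means of log2 CPM was larger than the SD of the differences for 8 of 8 members in MOV and for 7 of 8 in sham. For *Igtp* in MOV, the pair means had an SD of 2.14 and the differences one of 0.83. For *Gbp3* in MOV they were 1.25 and 0.44.

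**Figure D4:**
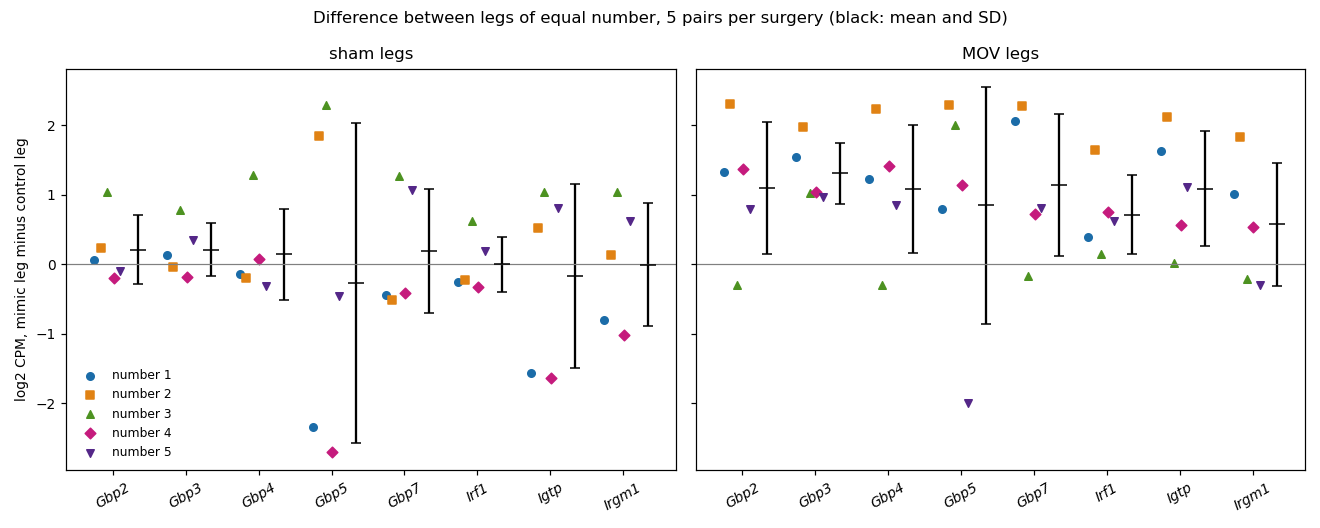
Log2 CPM of the mimic leg minus that of the control leg in 5 pairs of equal number per surgery for 8 members, by pair number (colours and symbols), with the mean and SD in black and a grey line at 0. In MOV the means lie between 0.57 and 1.31, and in sham between -0.27 and 0.21.

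In the mimic legs, MOV mimic against sham mimic gave log2 fold changes of 0.97 (*Gbp7*, SE 0.90) to 2.07 (*Gbp5*, SE 1.11), with a median of 1.19 (0.02 over all 14918 genes). Without MOV mimic 4 the median was 0.72, and without sham mimic 5 it was 2.50. This comparison uses the MOV mimic libraries of the contrast that chose the members, so its values stand without a test. edgeR called 0.0% of the 14918 genes, with 1997 at an unadjusted p under 0.05. DESeq2 called 221 of the 14918 genes and voom 17, none of them a member, and nothing is read from these counts for the members. The interaction between surgery and virus, fitted to the 20 libraries as the difference between the mimic effect in MOV and that in sham, lay at 0.44 (*Irgm1*, SE 1.43) to 1.64 (*Gbp5*, SE 1.53) over the members. Its median over the members was 0.92 on the log2 scale and -0.01 over 16166 genes, of which edgeR called 0.0%, with 426 at an unadjusted p under 0.05. DESeq2 called 1 of the 16166 genes in the interaction, no member, and voom 0. With equal numbers as a block DESeq2 called 5 genes, 1 of them a member (*Gbp3*), and edgeR 0. The interaction contains the contrast that chose the members, so nothing is read from these counts for the members. Without sham control 5 the median of the members was 0.28, and without sham mimic 5 it was 2.14.

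The receptor and kinase genes upstream of the members had narrower ranges on a fold scale than the members. *Ifngr2*, a receptor chain, stayed between 49.4 and 74.4 CPM over the 20 libraries, and the kinase gene *Jak1* between 108 and 234 CPM. *Jak2*, the other kinase gene, ranged most of these, from 22.9 to 84.4 CPM or 3.69-fold. In MOV control against sham control its log2 fold change was -0.90 (SE 0.20, adjusted p = 0.0630, edgeR), and DESeq2 called it lower (adjusted p = 0.00332, and 0.00166 to 0.114 over both tools with and without equal numbers as a block). *Ifngr1*, a receptor chain named outside the rule after its values were seen, was at 22.9 to 41.0 CPM.

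*Ifng* itself, the ligand, also named after its values were seen, had few reads. It was at 0 to 0.453 CPM in the 5 sham control libraries, at 0 to 0.349 CPM in sham mimic and at 0 to 0.321 CPM in MOV control. In MOV mimic *Ifng* was at 0.512, 2.79, 0.253, 10.2 and 0 CPM, the highest value being 141 counts. Its 2 high libraries, MOV mimic 2 and 4, were the 2 highest of their group for the members, while MOV control 4 and the sham libraries of number 5 had high members at 0 to 0.453 CPM of *Ifng*. A count of 0 allows up to 3 counts in a library, which covers counting error only.

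Other genes of the pathway were read as lists, which were chosen with results of these data known. In MOV control against sham control edgeR called none in any list, while DESeq2 called *Jak2* and, among cell type markers, *Cd163* (macrophages), *Kdr* (endothelium) and *Myh4* (muscle fibres), each lower in MOV control and the latter 3 named after their values were seen. In MOV mimic against MOV control, which shares its libraries with the choice of members, edgeR also called none, and the counts above 0 are a description, beside 49.3% of 15220 genes above 0. Of 8 other genes listed with the IRGs, 7 had a log2 fold change above 0, between -0.09 (*Irgq*) and 1.16 (*Tgtp2*). That list includes *Gvin1*, which is of another GTPase family and is named for that reason. *Irgm2* was at 70.8, 180, 36.6, 648 and 46.9 CPM in MOV control and at 179, 733, 59.0, 874 and 92.6 CPM in MOV mimic, and *Irgq*, which is not known as an interferon-induced gene, was at 22.3 to 47.7 CPM in all 20 libraries. Of the other GBPs, *Gbp9* had a log2 fold change of 0.89 and *Gbp8* of 1.94.

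Of 12 other targets of interferon-gamma, 11 were tested and 11 had a log2 fold change above 0 in MOV mimic against MOV control, from 0.56 (*Serping1*, a complement inhibitor gene) to 1.98 (*Cxcl9*, a chemokine gene that draws T cells). *Cxcl9* was at 15.8, 78.4, 8.52, 63.4 and 6.05 CPM in MOV control and at 51, 370, 9.54, 246 and 3.96 CPM in MOV mimic. *Cd274*, which encodes the ligand PD-L1, was at 7.96, 23.6, 2.34, 46.8 and 2.62 CPM in MOV control and at 10.2, 114, 3.28, 112 and 7.66 CPM in MOV mimic. Both had their high values in numbers 2 and 4 as the members did. In pairs, 7 of 11 of these targets were higher in the mimic leg of 5 of 5 MOV pairs and 1 of 11 in 5 of 5 sham pairs, beside 4.49% and 2.41% of 13948 genes. The median log2 fold change of the 11 was 1.30.

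Of 12 genes induced by type I interferon, 12 had a log2 fold change above 0 in MOV mimic against MOV control, from 0.33 (*Oas1a*) to 1.18 (*Mx1*), and 1 of 12 was higher in the mimic leg of 5 of 5 pairs. *Stat2* and *Irf9*, whose products act together in type I signalling, reached 93.2 and 48.4 CPM at most. Over the 20 libraries r of these 12 genes to the mean z-score of the members was 0.39 (*Oas1a*) to 0.94 (*Ifit3*), with *Stat2* and *Irf9* at 0.93 each. The 7 negative regulators had 7 log2 fold changes above 0, from 0.07 (*Irf2*) to 1.33 (*Socs1*, a feedback inhibitor of the kinases). Of 8 inducers of *Ifng*, 6 were tested and 6 were above 0, from 0.08 (*Il12a*, a cytokine subunit) to 2.13 (*Tbx21*, a transcription factor of T helper cells). Of 9 partners in autophagy and inflammasomes, 7 were above 0, from -0.21 (*Gabarapl2*) to 1.69 (*Nlrp3*).

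Markers of leukocytes were summed per library beside the members. The 12 T and NK cell markers summed to 16.8 to 80.0 CPM in MOV mimic, 6.11 to 26.6 CPM in MOV control, 7.99 to 22.3 CPM in sham mimic and 5.89 to 21.5 CPM in sham control, and 11 of the 11 tested had a log2 fold change above 0 in MOV mimic against MOV control. In MOV mimic the sums were 64.4, 80.0, 27.3, 54.0 and 16.8 CPM in numbers 1 to 5, high in the same 3 numbers as the members. In MOV control 4, which had the highest members of its group, the sum was 6.11 CPM, the lowest of its group, and in sham control 5 it was 5.89 CPM, again the lowest. In MOV control 2, the second highest library for the members, the sum was 26.6 CPM, the highest of its group, and in sham mimic 5 it was 8.93 CPM, in the middle of its group. Of the defining T cell markers, *Cd3e* was above 0 in each library and *Cd3d* was at 0 in 2. The NK cell markers *Ncr1* and *Klrb1c* were at 0 in 6 and 5 libraries, and *Nkg7*, *Gzma*, *Gzmb* and *Prf1* in 1 each, these markers being named because they define the cells or were at 0 and not by their levels.

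The 9 macrophage markers found summed to 510 to 954 CPM in MOV mimic, 257 to 875 in MOV control, 264 to 943 in sham mimic and 255 to 1050 CPM in sham control, and 9 of 9 had a log2 fold change above 0 in MOV mimic against MOV control. MOV control 4 and 5 were alike in this sum, at 263 and 257 CPM, and differed in *Igtp*, at 803 and 28.7 CPM. The 6 dendritic and B cell markers summed to 3.90 to 17.1 CPM in sham control and MOV control, 2.34 to 15.2 in sham mimic and 6.75 to 43.4 CPM in MOV mimic, with *Ms4a1* and *Cd79a* at 0 in part of the libraries. Endothelial markers summed to 274 to 414 CPM in sham and 149 to 300 CPM in MOV. Fibroblast markers summed to 877 to 8821 CPM over the 20 libraries. Muscle fibre markers summed to 97730, 62806, 125897, 82278 and 104622 CPM in MOV mimic 1 to 5, lowest in numbers 2 and 4, the 2 libraries with the highest members of that group. In MOV control they summed to 89520, 84804, 96780, 132732 and 150226 CPM, and number 4, with the highest members, was the second highest. In the sham libraries of number 5 the sum was 118508 CPM with control and 129484 CPM with mimic virus, within the range of the other 4 libraries of either group. The part of these cell types in the differences of the members was not tested.

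**Figure D5:**
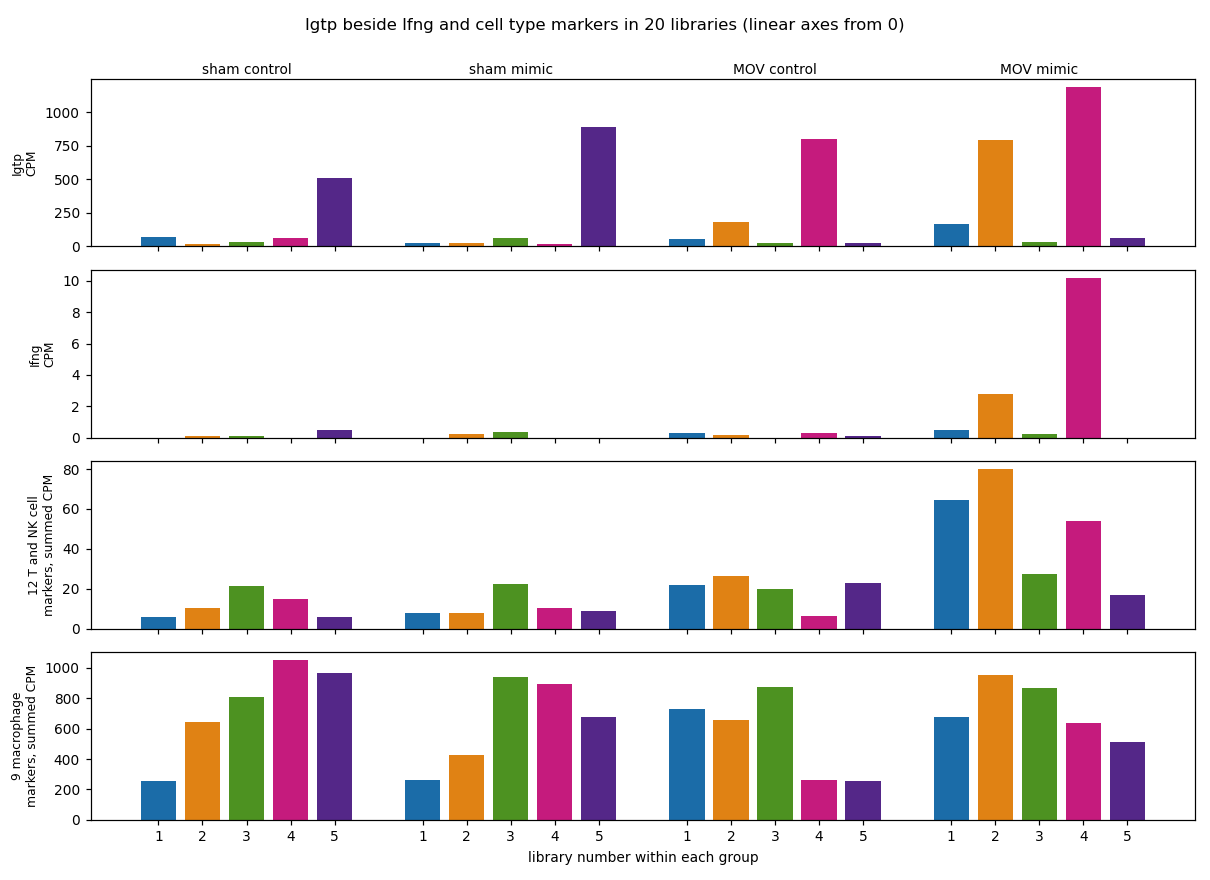
CPM of *Igtp* and *Ifng* and summed CPM of 12 T and NK cell markers and 9 macrophage markers in each of the 20 libraries (bars from 0, coloured by library number). *Ifng* is above 1 CPM only in MOV mimic 2 and 4, and the T and NK cell sum is 6.11 CPM in MOV control 4.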

How the data were processed

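Whole plantaris RNA was sequenced from 20 muscles, 5 each for MOV mimic, MOV control, sham mimic and sham control, grouped by the labels. The deposited values are counts of reads per Ensembl gene without normalization, which the authors placed in a control and a mimic table. Per the submitters' processing notes and the study's methods, reads were trimmed (cutadapt 4.4, Trim Galore 0.6.10), aligned to GRCm38 with HISAT2 2.0.5 and counted with featureCounts 1.5.0-p3. The annotation release, strand setting and treatment of multi-mapped reads are not given in the sources used here, so reads of paralogs and of antisense genes cannot be told apart. Libraries held 12036360 to 23056525 counts.

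Symbols came from a table of GENCODE vM1, which names 32640 of the 54532 genes, and loci and promoters from RefSeq (GRCm38.p6). CPM were scaled with TMM over 20 libraries, and log2 CPM used a prior count of 2. Groups were compared with the quasi-likelihood test of edgeR 4.0.16 (filterByExpr, two-sided, Benjamini-Hochberg adjusted p under 0.05), fitted over all genes that passed the filter. P-values are printed for members only in MOV control against sham control, since the members were chosen on the values of the mimic. The labels do not name the animal of a library, so that the spread between libraries is all these p-values measure. As alternatives, the low-count filter was dropped, size factors of DESeq2 1.42.0 replaced TMM, DESeq2 itself or voom with quality weights (limma 3.58.1) replaced edgeR, all 20 libraries entered a fit, equal library numbers served as a block, each library was left out, and prior counts of 0.5 and 5 were used. The 2-group fits without a block were run on simulated counts with known changes, at a single dispersion below that of the members. That check does not cover the block, the interaction or genes that spread as the members did. Analyses used R 4.3.3, Python 3.11.15 and matplotlib 3.10.9.

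Members, lists and markers were chosen with earlier results of these data known. Named beside the members are up to 4 genes of each list with the highest mean CPM or at the ends of its range of fold changes, and genes out of the 8 most like the members by Pearson's r over 20 libraries. Cell type markers are named where they define a cell type or were at 0, and other genes named outside this are marked as such. Some genes that these rules would name are not reported here and were left out of the lists. *Gbp2b*, *Gbp10* and *Adgre1* had no identifier in the symbol table that is in the counts and are not analysed here, nor are the study's qPCR, histology and eCLIP-seq data.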

Additional observations from a re-analysis of the deposited data

Results flagged for a closer look

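Single libraries lay far above the other 4 of their group in CPM of the members, by Dixon's ratio of the gap to the range. Its critical value of 0.71 for 5 libraries marks about 1 group in 20 by chance where values are normally distributed. Of 32 sets of 5 CPM values (8 members in 4 groups) 14 were marked, each for its highest library. CPM are skewed to high values here, so this count cannot be set against that rate. On the log2 scale 2 of 32 were marked, *Gbp2* (ratio 0.744) and *Irgm1* (0.749), both for sham control 5. The 8 members are not independent of each other, since they went up and down together across libraries.

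The ratios that follow are those of CPM. In sham control, number 5 was marked for 7 of 8 members, all but *Gbp3*. Its ratio was 0.894 for *Gbp2* (92.5 CPM), 0.863 for *Gbp4* (74.8 CPM), 0.817 for *Gbp5* (8.35 CPM) and 0.855 for *Gbp7* (92.3 CPM). For *Irf1* the ratio was 0.786 (47.3 CPM), for *Igtp* 0.900 (508 CPM) and for *Irgm1* 0.916 (269 CPM). In sham mimic, number 5 was marked for 4 of 8 members, with ratios of 0.773 for *Gbp2* (86.1 CPM), 0.867 for *Gbp7* (194 CPM), 0.946 for *Igtp* (892 CPM) and 0.922 for *Irgm1* (413 CPM). In MOV control, number 4 was marked for 3 of 8 members, with ratios of 0.846 for *Gbp7* (143 CPM), 0.801 for *Igtp* (803 CPM) and 0.805 for *Irgm1* (455 CPM). In MOV mimic no library was marked, numbers 2 and 4 both being high.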

How the results depend on the processing

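Members were called in no fit without equal library numbers as a replicate block, and their adjusted p in MOV control against sham control was 0.287 to 0.997 over all fits. Counts of all genes called moved with the tool. For MOV control against sham control edgeR called 1 gene, no filter gave 388, DESeq2 914, voom 946 and all 20 libraries in the fit 36. For MOV mimic against MOV control edgeR called 0, DESeq2 3 and the fit on 20 libraries 1. For MOV mimic against sham mimic edgeR called 0, no filter gave 1, DESeq2 221, voom 17 and the fit on 20 libraries 3, and for the interaction DESeq2 called 1. The cause was not tested. *Gbp3* in MOV control against sham control was at -0.10 with voom and at 0.15 with edgeR.

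Equal numbers are set side by side as a description, and were not taken to mark legs of the same mouse in a test, since deviations of equally numbered libraries from their group means correlated at over 0.1 in 4 of 5 pairs of each surgery (mean r = 0.23 in MOV, lowest 0.07, and 0.29 in sham, lowest 0.0027, over 13940 genes), where every pair was required, and the labels do not state shared animals. Of the 5 MOV control libraries 3 correlated best with their own number, and 2 in sham. Libraries of unequal number correlated at a mean r of -0.05 in MOV and -0.06 in sham. The methods give both legs of each mouse but not which numbers share a mouse, so these values are a hint about the numbering only. With the replicate block, DESeq2 called 127 of 15220 genes in MOV mimic against MOV control, 5 of them members (*Gbp2*, *Gbp3*, *Gbp4*, *Gbp7* and *Igtp*). In the interaction it called 5 of 16166 genes, 1 of them a member (*Gbp3*). The members were selected on MOV mimic against MOV control, which the interaction contains, so nothing is read from these counts for the members. The same block in DESeq2 gave 722 genes in MOV control against sham control and 116 in MOV mimic against sham mimic, where equal numbers join different mice. The block in edgeR called 0, 0 and 0 genes in the mimic comparison of MOV, the interaction and MOV mimic against sham mimic, and 1 in MOV control against sham control.

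Leaving out 1 library at a time gave 0 to 426 genes in MOV control against sham control (highest without sham control 3) and 0 to 101 in MOV mimic against sham mimic (highest without MOV mimic 5). The median of the members was -0.55 (without MOV control 4) to 1.29 (without sham control 5) in MOV control against sham control, -0.71 (without sham mimic 5) to 1.16 (without sham control 5) in sham, 0.81 (without MOV mimic 4) to 2.11 (without MOV control 4) in MOV mimic against MOV control, 0.72 to 2.50 in MOV mimic against sham mimic and 0.28 to 2.14 for the interaction. In MOV control against sham control the log2 fold changes ranged, again between the fits without MOV control 4 and without sham control 5, from -0.42 to 1.26 for *Gbp2*, -0.53 to 0.71 for *Gbp3*, -0.92 to 0.56 for *Gbp4*, -0.064 to 1.79 for *Gbp5*, -0.69 to 1.32 for *Gbp7*, -0.12 to 0.95 for *Irf1*, -0.88 to 2.29 for *Igtp* and -0.58 to 1.92 for *Irgm1*. In MOV mimic against MOV control, *Irgm1* was at -0.00096 without MOV mimic 4. The mean pair differences in MOV stayed above 0 for 8 of 8 members without any 1 pair. In sham they ranged from -0.0018 to 0.31 for *Gbp2*, 0.067 to 0.31 for *Gbp3*, -0.14 to 0.26 for *Gbp4*, -0.91 to 0.34 for *Gbp5*, -0.076 to 0.37 for *Gbp7*, -0.16 to 0.078 for *Irf1*, -0.47 to 0.20 for *Igtp* and -0.27 to 0.25 for *Irgm1*. With a prior count of 0.5 or 5 no mean pair difference moved by more than the SD over pairs.

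Depth limits the rows called *Gbp5* and *Gbp6* and *Ifng*, which had 1 to 551, 0 to 5 and 0 to 141 counts per library. The 5 libraries per group and the spread between them limit the rest.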
